A study of Mus musculus with 82 samples.

Results

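Skeletal muscle messenger RNA was followed in mouse mammary tumours through 35 genes, of 47480 in the count table. They were taken as a fixed set of sarcomere, calcium, metabolic and regulatory genes of skeletal muscle, and their counts were read in every library to see which libraries held muscle RNA and whether fast or slow fibre genes made it up. The 82 libraries came from untreated tumours of 13 models. The BALB/c models were 2153 (n = 7 libraries), 2208 (n = 12), 2224 (n = 4), 2225 (n = 10), 2250 (n = 11), 2336 (n = 5), 4T1 (n = 5), 9263 (n = 7) and T12 (n = 3), E0771 (n = 3) was the C57BL/6 model, and KPB1-A (n = 2), MMTV-NEU (n = 8) and MMTV-PYMT (n = 5) were FVB models. The series describes the libraries as individual tumours and biological replicates, and the labels used here give neither the animal, its age, the site of growth nor the tissue taken with a tumour. The p-values below rest on how far libraries of a model differ. Whether muscle RNA came from tissue beside a tumour was not tested, and strain cannot be told apart from model, since each model has 1 strain.

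Skeletal muscle fibres contract when calcium released through the ryanodine receptor binds troponin C, which lets myosin heads pull on actin. Fibres differ in speed: fast fibres carry the myosin heavy chains of types IIa, IIx and IIb (Myh2, Myh1 and Myh4) with fast troponins, and slow fibres carry Myh7 with slow troponins. Mammary glands of mice lie next to skin and body wall muscles, while the epithelial cells of the gland have no sarcomeres. In bulk RNA, fewer muscle cells and less RNA per muscle cell cannot be told apart.

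The myogenic regulators Myod1 and Myog bind the E-box, whose general form is CANNTG and whose form CAGCTG they favour. Windows of 250 bases before to 50 bases after the annotated start, from RefSeq on GRCm38.p6, were at hand for 26 of the 35 members (30 windows). The 3 genes used below to call a library as holding muscle RNA are shown first, followed by the leading fast myosin and the slow myosin, each written 5′ to 3′ on the gene's strand with CAGCTG in capitals.
Acta1 (chr8:123894726-123895025, minus strand): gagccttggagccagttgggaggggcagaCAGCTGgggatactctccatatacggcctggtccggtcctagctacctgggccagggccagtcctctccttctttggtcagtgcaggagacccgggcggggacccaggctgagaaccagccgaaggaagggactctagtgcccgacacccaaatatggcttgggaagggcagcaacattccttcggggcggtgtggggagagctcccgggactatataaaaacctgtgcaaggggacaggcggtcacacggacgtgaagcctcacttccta
Ckm (chr7:19410844-19411143, plus strand): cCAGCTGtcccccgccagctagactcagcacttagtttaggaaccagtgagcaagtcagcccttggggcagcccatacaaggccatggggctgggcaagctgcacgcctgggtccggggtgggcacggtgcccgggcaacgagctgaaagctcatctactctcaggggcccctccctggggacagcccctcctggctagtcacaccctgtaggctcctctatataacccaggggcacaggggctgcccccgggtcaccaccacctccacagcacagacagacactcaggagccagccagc
Mylpf (chr7:127211358-127211657, plus strand): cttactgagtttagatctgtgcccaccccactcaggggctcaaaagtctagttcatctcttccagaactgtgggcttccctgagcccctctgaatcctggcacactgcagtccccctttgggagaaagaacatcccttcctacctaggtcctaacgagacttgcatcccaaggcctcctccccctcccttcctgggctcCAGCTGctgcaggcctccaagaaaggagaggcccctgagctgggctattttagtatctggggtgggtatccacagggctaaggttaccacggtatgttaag
Myh4 (chr11:67237562-67237861, plus strand): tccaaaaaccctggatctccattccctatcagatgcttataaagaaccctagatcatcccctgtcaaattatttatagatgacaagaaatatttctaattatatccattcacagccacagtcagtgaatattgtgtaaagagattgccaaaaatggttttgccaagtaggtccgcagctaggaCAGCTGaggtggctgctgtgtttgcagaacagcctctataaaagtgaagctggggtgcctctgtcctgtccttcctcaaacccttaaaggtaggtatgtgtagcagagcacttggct
Myh7 (chr14:54994500-54994799, minus strand): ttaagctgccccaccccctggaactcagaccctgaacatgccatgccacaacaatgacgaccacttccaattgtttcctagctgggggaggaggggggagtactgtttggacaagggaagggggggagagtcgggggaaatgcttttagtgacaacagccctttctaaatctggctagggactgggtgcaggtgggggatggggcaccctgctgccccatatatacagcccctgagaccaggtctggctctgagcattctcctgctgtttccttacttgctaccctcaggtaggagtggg
Acta1, Ckm, Mylpf and Myh4 each hold 1 CAGCTG in this window and the window shown for Myh7 holds none. Presence of CAGCTG did not follow fibre type. Of the other fast genes with a window, Atp2a1, Casq1 and Myl1 hold 1, and Myh1, Myh2, Mybpc2, Pvalb and Tnnc2 hold none. Of the other slow genes, Myl2, Tnni1 and Mybpc1 hold 1 in each window, and Myl3, Tnnc1 and Tnnt1 hold none. CAGCTG, which reads the same on both strands, was in 14 of the 30 member windows (12 of the 26 members), against 16.3% of 32851 windows of all genes. The general CANNTG, which includes CAGCTG, was in 26 of the 30, against 72.3%. Searched on both strands, the MEF2 site was in 5 of the 30, against 3.19%, the CArG box in 3, against 1.63%, and TATAAA in 7, against 13.6%. These matches are descriptions of the letters and not binding sites.

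Library totals ran from 14.4 to 132.7, with a median of 58.2, in units of 1e6 estimated counts, so that 3 counts, taken as the floor of detection, stood between 0.0226 and 0.208 CPM (counts for each 1e6 counts of the library). In 19 libraries every one of the 35 members had a count. Levels below are CPM of the library total unless another scale is named.

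The 35 genes together took 1.02% of all counts in the library with the most muscle RNA, 2208 replicate 9, and 0.00072% in the one with the least, MMTV-NEU replicate 4, which is a 1412-fold range. The median was 0.00825%, 10 libraries stood at 0.1% or more, and 45 stood below 0.01%. Libraries of a model differed widely: the highest library exceeded the lowest 666-fold in 2208, 573-fold in MMTV-NEU, 510-fold in MMTV-PYMT and 73.3-fold in 9263. The range was 2.84-fold in 2153 and 1.31-fold in T12.

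A library was called as holding muscle RNA where the sarcomeric actin Acta1, the muscle creatine kinase Ckm and the fast regulatory light chain Mylpf each reached 10 CPM. This held in 19 of the 82 libraries, from 8 models: 3 of 3 E0771 libraries, 3 of 4 from 2224, 3 of 12 from 2208, 2 of 5 from 2336, 2 of 5 from MMTV-PYMT, 2 of 7 from 9263, 2 of 8 from MMTV-NEU and 2 of 11 from 2250. No library of 2153, 2225, 4T1, KPB1-A or T12 met it. At 1 CPM for each of the 3 genes 37 libraries of 11 models passed, and at 100 CPM 5 passed, namely 2208 replicate 9, 9263 replicate 3, E0771 replicate 1, MMTV-NEU replicate 6 and MMTV-PYMT replicate 5. The totals of these 5 libraries ran from 17.2 to 86.9 in the same unit. At 10 CPM 21 libraries passed with library sizes scaled by TMM, and 23 passed with Ckm, Myh4 and Tnnt3 as the 3 genes.

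**Figure D1:**
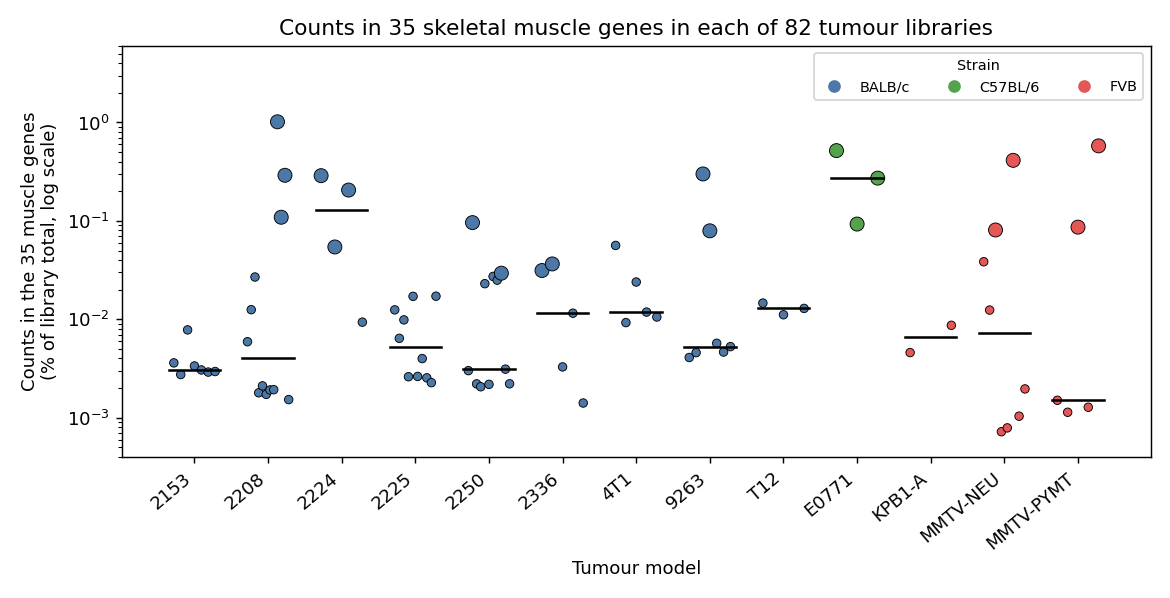
Percent of each library's counts that fell on the 35 muscle genes (log scale), 1 point per library, by tumour model and coloured by strain; the bar is the median of the model and large points are the 19 libraries in which Acta1, Ckm and Mylpf each reached 10 CPM. Points run from 0.00072% to 1.02%, and single high libraries stand far above their model in 2208, 9263, MMTV-NEU and MMTV-PYMT.

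Acta1, the actin of the sarcomere's thin filament, was the most abundant member in 2208 replicate 9, at 1860 CPM. Ckm, which buffers ATP in muscle, had 879, 91.2 and 310 CPM in 2208 replicates 9, 10 and 11. It had 6.1 and 20 CPM in replicates 2 and 3 and at most 0.451 CPM in the other 7 libraries of 2208. The 3 richest libraries carry consecutive numbers in their titles, and the labels do not say what these numbers mark.

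E0771 was the model in which every library held muscle RNA. Ckm was at 333, 52 and 184 CPM in E0771 replicates 1, 2 and 3, and Acta1 at 1077, 197 and 632.5 CPM. In the 4 libraries of 2224 Ckm was at 145, 28.3, 110 and 2.95 CPM, and Acta1 at 526, 127, 422 and 16.3 CPM. The lowest E0771 library stood above the highest libraries of 2153, 2225, 2250, 2336, 4T1, KPB1-A and T12 for Ckm.

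In MMTV-PYMT Ckm was at 0, 0.743, 46.7, 0.251 and 376 CPM in replicates 1 to 5. In MMTV-NEU it ran from 0.149 to 279 CPM with a median of 2.58, and in 9263 from 0.0344 to 218 CPM with a median of 0.164. A single library held most of the Ckm of each of these 3 models. In 2153 Ckm reached 0.623 CPM, and in T12 0.173 CPM.

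**Figure D2:**
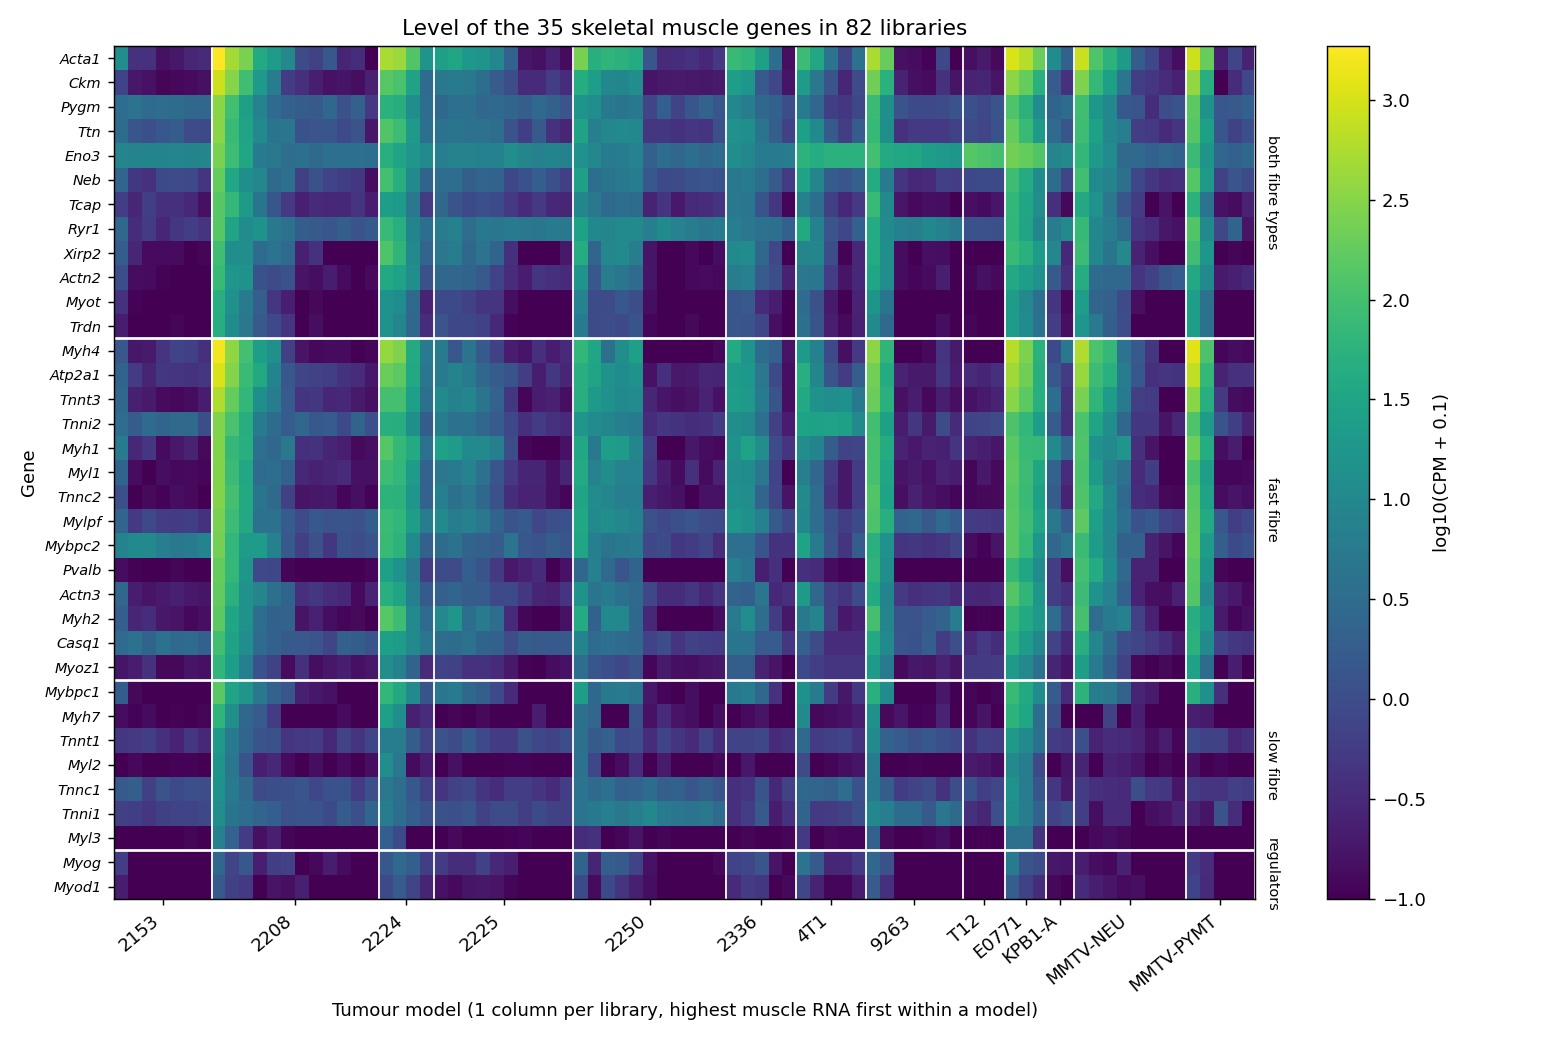
Level of the 35 genes, as log10(CPM + 0.1), in the 82 libraries; rows are genes grouped by fibre type, columns are libraries grouped by model and sorted within it by the total of the 35 genes. Most rows light up in the same columns, 2208 replicate 9 being the highest for 30 genes, while Eno3, Ryr1, Tnni1 and Tnnc1 also keep a level across columns where Ckm is near 0.

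Across libraries the members moved largely together. Of the 35 genes, 30 had their highest level in 2208 replicate 9, 4 (Tnnt1, Tnni1, Myog and Myod1) in E0771 replicate 1, and 1 (Xirp2, which binds actin at the ends of fibres) in 2224 replicate 1. Spearman's rho with Ckm over the 82 libraries, given as a description since libraries of a model share their tumour type, was highest for Actn2, an actinin of the Z-disc, at 0.937. It was 0.909 for Acta1, 0.914 for Pvalb, the calcium buffer of fast fibres, and 0.911 for Atp2a1, the calcium pump of fast fibres. The lowest values belonged to Tnni1 at 0.171, Tnnc1 at 0.201, Eno3 at 0.453 and Myh7 at 0.492. Myog was the one member whose 10 highest libraries included fewer than 5 of the 10 highest for Ckm, namely 4.

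In 2208 replicate 9, the library with the most muscle RNA, levels per kilobase of exon ranked Acta1 first at 1211 CPM per kb. The fast troponin T gene Tnnt3 followed at 360 CPM per kb, with the fast troponin C gene Tnnc2 at 358, Atp2a1 at 304 and Ckm at 302 CPM per kb. The regulators Myog and Myod1 were last, at 1.79 and 0.773 CPM per kb. Tnnc2 overlaps exons of Ube2c, a cell cycle gene, on the other strand, and Atp2a1 overlaps Rabep2; strandedness was not given in the sources used here, so reads of such pairs cannot be told apart.

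Every one of the 35 members differed among the 13 models in edgeR's quasi-likelihood F test at an adjusted p under 0.05. The same test called 98.2% of the 22847 genes tested, so the members' count is at the background. The largest adjusted p was 0.0271, for Myh1, and the smallest 1.24e-15, for Tnni1. All 35 members had passed the filter on low counts.

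Differences between models took up a small part of the members' spread. Of the variance of log2 CPM over the 82 libraries, a median of 28.9% lay between models for the members, from 22.8% for Myoz1, a calcineurin-binding protein of the Z-disc, to 77.9% for Tnni1. The median over all genes tested was 75.3%, and 34 of the 35 members lay below it. Tnnc1 at 61%, Eno3 at 58% and Tnnt1 at 53.2% came next after Tnni1.

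Set against the mean of the other 12 model means, all on the log2 scale, E0771 was higher in 35 of 35 members, against 29.4% of all genes higher there. The median difference of the members was 3.88 in E0771, beside -0.11 for all genes tested. Ckm averaged 190 CPM in E0771 and 31.6 CPM over the other models' means, a log2 difference of 4.76 ± 1.13 (SE, adjusted p = 0.000219, edgeR, as are all adjusted p-values below). Myh7 averaged 31.1 CPM in E0771 and 1.82 CPM in the others, with a log2 difference of 7.0 ± 0.97 (adjusted p = 3.16e-09). Without E0771 replicate 1, 24 members stayed past the threshold.

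2208 was higher in 30 of 35 members, where 29.4% of all genes were higher, with a median log2 difference of 2.48 beside -0.01 for all genes. Ckm averaged 109 CPM in 2208 and 38.3 CPM in the others, a log2 difference of 3.84 ± 0.87 (adjusted p = 0.000113), and Acta1 averaged 224 and 123 CPM, a difference of 3.04 ± 0.92 (adjusted p = 0.00361). Without replicate 9, 7 members were past the threshold. Without replicates 9, 10 and 11 together, an alternative chosen after the values were seen, edgeR called 0 members higher and 3 lower (0 and 6 at an unadjusted p under 0.05), and the Ckm difference was -1.27 (adjusted p = 0.363). Without replicate 9 alone the difference was 2.42 for Ckm and 1.53 for Acta1 (edgeR adjusted p = 0.179 for Acta1). By limma on the authors' normalized values 2 members were higher in 2208, and the Ckm difference was 0.07 (adjusted p = 0.966).

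2224 was higher in 28 of 35 members, against 24% of all genes, with a median log2 difference of 2.90 beside 0.03 for all genes. Ckm averaged 71.6 CPM in 2224 and 41.4 CPM in the others, a log2 difference of 3.14 ± 1.14 (adjusted p = 0.0218). Acta1 differed by 3.31 ± 1.22 (adjusted p = 0.025). Without replicate 1, 7 members were past the threshold, and the edgeR adjusted p for Ckm was 0.119, against 0.0981 without replicate 3. DESeq2 called 16, with adjusted p = 0.0609 for Ckm and 0.0659 for Acta1.

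In MMTV-PYMT 20 members were higher, against 31% of all genes, and 2 were lower, against 20.5%. Of the 20 higher members 11 were fast fibre genes and 9 are shared by both fibre types; the 2 lower ones, Tnnc1 and Tnni1, are slow troponin genes. The fast myosin Myh4 averaged 266 CPM in MMTV-PYMT and 72 CPM in the others, a log2 difference of 4.89 ± 1.21 (adjusted p = 0.000457). Tnni1 averaged 0.324 CPM in MMTV-PYMT and 2.28 CPM in the others, a difference of -2.04 ± 0.58 (adjusted p = 0.00202). The Myh4 difference was 1.83 without replicate 5 and -0.63 by limma, and that of Tnni1 was -3.30 without replicate 1. Without replicate 5 edgeR called 0 members higher and 3 lower in MMTV-PYMT, also at an unadjusted p under 0.05. With all 5 libraries DESeq2 called 16 higher and 3 lower, and limma on the authors' normalized values called 0 higher and 3 lower.

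In MMTV-NEU 11 of 35 members were higher, against 34% of all genes, and 3 were lower, against 28.4%. The higher count was thus near the share over all genes, and the lower count was under it. Of the higher members 8 were fast and 3 shared, and the lower ones were all slow troponin genes. Pvalb averaged 19.5 CPM in MMTV-NEU and 9.98 CPM in the others, a log2 difference of 4.17 ± 1.02 (adjusted p = 0.00026). Tnni1 averaged 0.163 CPM in MMTV-NEU and 2.29 CPM in the others, a difference of -3.02 ± 0.52 (adjusted p = 4.3e-07). Tnnt1 differed by -2.20 ± 0.61 (adjusted p = 0.00113) and Tnnc1 by -1.56 ± 0.45 (adjusted p = 0.00172). Without replicate 6, 1 member was higher in MMTV-NEU. With all 8 libraries DESeq2 called 10 higher and 4 lower, and limma called 0 higher and 6 lower.

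2153 was lower in 20 of 35 members, against 23.6% of all genes, with a median log2 difference of -3.91 beside -0.02 for all genes. Ckm averaged 0.127 CPM in 2153 and 47.4 CPM in the others, a log2 difference of -6.86 ± 2.11 (adjusted p = 0.00442). Ryr1, the calcium release channel, averaged 0.692 CPM in 2153 and 14.9 CPM in the others, a difference of -3.91 ± 1.01 (adjusted p = 0.000695). T12 was lower in 15 members, against 23.8% of all genes, and higher in 1, against 24.4%. Leaving out any single T12 library left 1 or 2 lower members.

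In the other models few members passed. 2225 was lower in 9, against 26.8% of all genes, and KPB1-A was lower in 1, Tnnc1, against 14.4%. DESeq2 called 14 members lower in 2225, limma 4 and edgeR with no filter 4. In KPB1-A DESeq2 called 4 lower. 9263 was higher in 7, against 32.5%, a count that was 2 by limma and 16 without the 3 richest libraries of 2208. 4T1 was higher in 4, against 25.5%, with 2 by DESeq2 and 6 without those 3 libraries of 2208, and lower in 1, Casq1, against 23.6%. 2250 was higher in 3, against 32.1%, and lower in 1, Eno3, against 27.7%. In 2336 edgeR called 0 members in either direction, where 30.2% of all genes were higher and 25.4% lower. At an unadjusted p under 0.05 it had 0 higher and 2 lower, and DESeq2 called 5 lower and limma 2 lower.

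Adult myosin heavy chains tell fast from slow fibres, and the 47 libraries with at least 100 counts of the 4 chains were compared. Per kilobase of exon, Myh4 was the leading chain in 25 libraries, Myh1 in 18 and Myh2 in 4, and slow Myh7 led in none. The median share of the 4 chains was 46.4% for Myh4, 26.8% for Myh1, 16.1% for Myh2 and 0.315% for Myh7. In the 5 libraries richest in muscle RNA Myh4 led throughout, with shares of 77.3% in 2208 replicate 9, 62.9% in 9263 replicate 3, 72.6% in E0771 replicate 1, 73.6% in MMTV-NEU replicate 6 and 83.5% in MMTV-PYMT replicate 5. Myh1, Myh2 and Myh4 lie side by side on chromosome 11, and their transcripts share 17% to 28.1% of their 31-base words, so part of their reads could be split between them by the authors' counting.

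The leading chain varied within models. In all 6 libraries of 2225 with enough counts Myh1 led, at 58.2% to 72.9%, and Myh4 held 3.64% to 25.1%. In 2250 Myh4 led in 3 libraries and Myh1 in 2, with Myh4 between 10.7% and 79.9%. In MMTV-NEU replicate 2 Myh1 held 60.8% and Myh4 15.5%, while Myh4 held 73.6% to 87.7% in the 3 other MMTV-NEU libraries. The 4 libraries led by Myh2 all belonged to 9263 and had 105 to 279 counts of the 4 chains, with Myh2 at 82.1% to 92.3%.

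**Figure D3:**
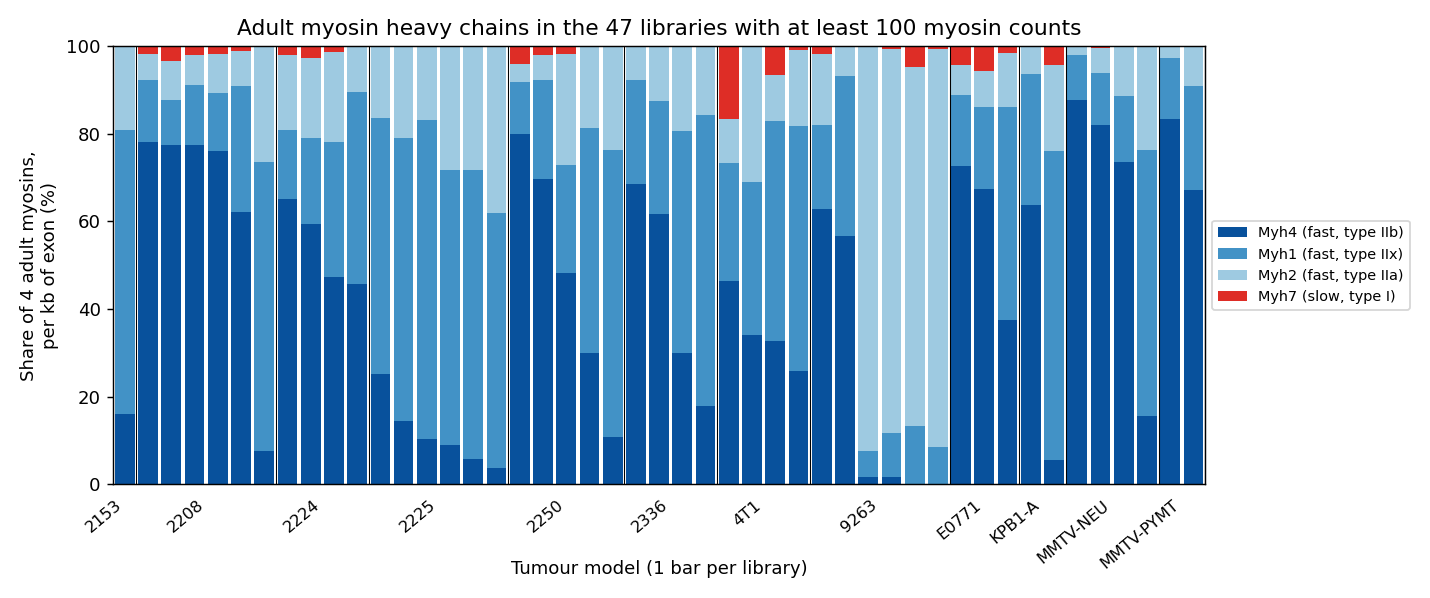
Share of Myh4, Myh1, Myh2 and Myh7 in the sum of the 4 adult myosin heavy chains, per kb of exon, in the 47 libraries with at least 100 counts of them, by model. The fast chains fill nearly the whole of each bar, Myh7 (red) reaching 16.6% at most, in 4T1 replicate 1, and the libraries of 9263 with little Ckm are filled by Myh2.

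The share of slow Myh7 was highest in 4T1 replicate 1, at 16.6%, followed by 6.72% in 4T1 replicate 2, where it rests on 13 of 143 counts, and it was 1.66% to 5.78% in E0771. In raw counts Myh7 took 5407 of 179061 in 2208 replicate 9, or 3.02% (95% exact binomial interval 2.94% to 3.1%), and 3263 of 53170 in E0771 replicate 1, or 6.14% (5.93% to 6.34%). In MMTV-PYMT replicate 5 it took 10 of 108045, or 0.00894% (0.00444% to 0.017%). In MMTV-NEU replicate 6 it took 0 of 14063, which allows a share of up to 0.0213%. FVB libraries differed: in KPB1-A replicate 2 it took 42 of 715, or 5.83% (4.27% to 7.86%), and in KPB1-A replicate 1 0 of 326. These intervals cover counting error only.

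Among the 19 libraries called as holding muscle RNA, the median levels of the 7 slow fibre genes relative to Ckm were lowest in the FVB libraries. This is a description and was not tested. In the 4 FVB libraries called as holding muscle RNA, 2 each from MMTV-NEU and MMTV-PYMT, Myh7 stood at 0 to 0.132 CPM, against 0 to 62.2 CPM in the 12 BALB/c libraries and 3.35 to 56.6 CPM in the 3 C57BL/6 libraries. Relative to Ckm, which all fibres carry, the slow troponin I gene Tnni1 had a median of 0.111% in the FVB libraries, against 4.01% in BALB/c and 3.9% in C57BL/6. The highest FVB value, 0.187% of Ckm, lay below the lowest BALB/c value, 1.14%. The FVB values of Tnni1 rest on 3 to 12 counts, and the lowest BALB/c value, in 2336 replicate 2, rests on 5. Tnni1 followed Ckm weakly over the 82 libraries (rho 0.171). In 2250 replicate 10 it had 666 counts beside 5.1 of Ckm. The BALB/c ratios, which include 2250, can therefore hold Tnni1 that does not go with Ckm. For Tnnt1 the FVB range of 0.214% to 1.29% of Ckm also lay below the BALB/c range of 1.72% to 8.29%. The call asks for 10 CPM of the fast gene Mylpf, and FVB libraries outside it held slow genes. KPB1-A replicate 2 had 42 counts of Myh7 beside 73 of Ckm, and MMTV-NEU replicate 1 had 51 beside 2291. MMTV-NEU replicate 2 had 20 counts each of Tnni1 and Tnnt1 beside 399 of Ckm. Myh7 was at 0 there and in KPB1-A replicate 1. The low slow levels thus describe the 4 called libraries and not FVB as a whole.

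The FVB and BALB/c ranges of Mybpc1, Myh7, Myl2 and Myl3 overlapped. Mybpc1, the slow-type myosin binding protein C, stood at 8.97% to 29.7% of Ckm in the FVB libraries, against 9.86% to 54.5% in BALB/c and 21.2% to 23.3% in C57BL/6. The light chain Myl2 stood at 0% to 0.0624% of Ckm in FVB, against 0% to 9.08% in BALB/c and 1.46% to 3.37% in C57BL/6. Fast genes gave overlapping ranges, with Tnnt3 at 87% to 107% of Ckm in FVB, 59.8% to 112% in BALB/c and 84.7% to 97.7% in C57BL/6. Pvalb was the exception, at 34.6% to 59.4% of Ckm in FVB, above the 5.82% to 29.6% of BALB/c and the 17.6% to 22% of C57BL/6. The FVB libraries came from 2 models and the C57BL/6 libraries from 1, so strain, model and the piece of tissue taken cannot be told apart here.

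The 3 troponin pairs were read as fast over slow, per kilobase of exon, in the same 47 libraries. The troponin T ratio Tnnt3 over Tnnt1 was above 1 in 43 libraries, the troponin C ratio Tnnc2 over Tnnc1 in 38 and the troponin I ratio Tnni2 over Tnni1 in 42. The median ratio for troponin T was 123 in FVB, against 16.3 in BALB/c and 19.8 in C57BL/6. For troponin C it was 80.1 in FVB, against 5.19 in BALB/c and 15.5 in C57BL/6. For troponin I it was 334 in FVB, against 9.75 in BALB/c and 25.1 in C57BL/6. The 8 FVB libraries were 4 of MMTV-NEU, 2 of MMTV-PYMT and 2 of KPB1-A, and KPB1-A had lower ratios than the other FVB models. Its ratios were 1.21 and 9.87 for troponin T, 2.27 and 6.04 for troponin C and 0.696 and 6.44 for troponin I, with medians of 5.54, 4.16 and 3.57 that lay below the BALB/c medians. The lowest MMTV-NEU ratios were 33.3, 16.5 and 26.6, and the lowest MMTV-PYMT ratios were 115, 104 and 732. Tnni1 had 3 counts in replicate 3 of each of these models, 9 in MMTV-NEU replicate 6 and 12 in MMTV-PYMT replicate 5. The troponin I ratios of these libraries rest on counts at or near the floor, so their size is uncertain.

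At lower counts of myosin the ratios were lower. In the 35 libraries under 100 myosin counts the median ratio was 0.309 for troponin T, 0.0702 for troponin C and 2.45 for troponin I, with the fast gene ahead in 8, 0 and 26 libraries. These medians rest on the 33, 32 and 33 libraries in which both genes of the pair had a count. In 9263 the median over its 6 libraries with enough counts was 0.117 for troponin T and 0.237 for troponin I, and 4 of the 6 had Ckm at or below 0.164 CPM.

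**Figure D4:**
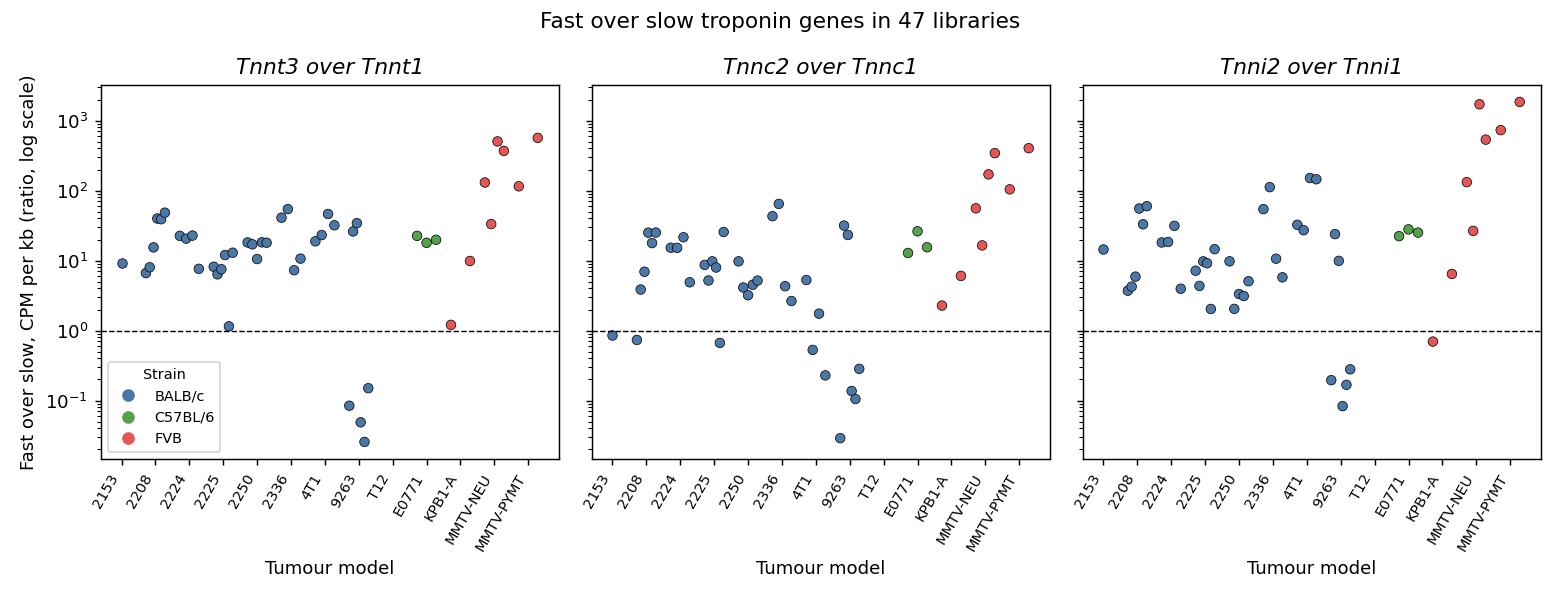
Ratio of fast over slow troponin T, C and I genes (CPM per kb, log scale) in the 47 libraries with at least 100 myosin counts, 1 point per library, by model and coloured by strain; the dashed line marks equal levels. The FVB models MMTV-NEU and MMTV-PYMT reach 1850 for troponin I, a ratio that rests on 12 counts of Tnni1. In all 3 panels 4 libraries of 9263 lie below 1.

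Some members kept a level where Ckm was near its floor. Ckm was below 1 CPM in 45 libraries, and there Eno3 reached 1 CPM in 45 and 10 CPM in 12, Pygm 1 CPM in 33, Ryr1 in 32, Mylpf in 23, Casq1 in 22, Mybpc2 in 21, Tnni1 and Ttn in 18 each and Tnnc1 in 17. Myh7, Myl2, Myl3, Pvalb, Tcap, Myoz1, Myot, Trdn, Myog and Myod1 reached 1 CPM in none of the 45. The sum over the 35 members thus also holds these genes' levels in libraries without Ckm.

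Eno3, the muscle enolase of glycolysis, showed this most. In T12 it had 138, 102 and 121 CPM in replicates 1 to 3 while Ckm stayed at or below 0.173 CPM and the other 34 members summed to 7.71 to 9.48 CPM. Eno3 was 91.5% to 94.3% of all member counts there. It averaged 120 CPM in T12 and 33.7 CPM in the others, a log2 difference of 2.58 ± 0.61 (adjusted p = 0.000251), while 15 members were lower in T12.

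Eno3 also kept a level in 4T1, at 44.4 to 57.2 CPM in 5 of 5 libraries, over Ckm levels of 0.184 to 23.2 CPM. It averaged 52 CPM in 4T1 and 39.4 CPM in the others, a difference of 1.32 ± 0.56 (adjusted p = 0.0433), which DESeq2 put at 0.0538 and edgeR with no filter at 0.0557. Without any single 4T1 library the edgeR adjusted p for Eno3 was between 0.0624 and 0.0878. In the 5 libraries of 9263 with Ckm at or below 0.299 CPM it stood at 18.4 to 36.2 CPM. It was lower in 2250, at a median of 3.38 CPM, with a difference of -2.12 ± 0.53 (adjusted p = 0.000404), and in 2225, at a median of 7.72 CPM, with a difference of -1.57 ± 0.53 (adjusted p = 0.00847).

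The fast troponin I gene Tnni2 was high in 4T1 without Ckm, at 29.7, 10.9, 27.4, 28.4 and 26.9 CPM in replicates 1 to 5. Replicate 5 had 0.184 CPM of Ckm and replicate 1 had 23.2 CPM, against 26.9 and 29.7 CPM of Tnni2. Tnni2 averaged 24.7 CPM in 4T1 and 18.4 CPM in the others, a log2 difference of 1.61 ± 0.94 that did not pass (adjusted p = 0.154); by limma on the authors' values the adjusted p was 0.0247, and without the 3 richest libraries of 2208 it was 0.0314 in edgeR. Tnnt3 likewise stood at 5.31 to 38.2 CPM in 4T1.

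Tnni1 was highest on average in E0771 and next in 2250. It ran from 3.06 to 9.85 CPM in 2250 with a median of 5.04, and its highest library, replicate 10, had 0.0757 CPM of Ckm. Tnni1 averaged 5.44 CPM in 2250 and 1.85 CPM in the others, a log2 difference of 2.52 ± 0.29 (adjusted p = 3.22e-12). Tnnc1 differed by 1.29 ± 0.30 (adjusted p = 0.000153). In 9263 Tnni1 ran from 1.48 to 9.57 CPM, with a difference of 2.02 ± 0.34 (adjusted p = 4.13e-07).

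Among the 4 myosin heavy chains, Myh2 kept such a level in 9263. Over the 45 libraries with Ckm below 1 CPM, Myh2 reached 1 CPM in 7, Myh4 in 4 and Myh1 in 3. The 5 libraries of 9263 with Ckm at or below 0.299 CPM had Myh2 at 1.15 to 6.09 CPM and Myh4 at 0 to 0.342 CPM. Over all 7 libraries Myh2 averaged 17.5 CPM in 9263 and 14.2 CPM in the others, a log2 difference of 2.03 ± 1.03 that did not pass (adjusted p = 0.0895) and that was -0.22 without replicate 3. Without the 3 richest libraries of 2208 its adjusted p was 0.0267. Myh2 overlaps the antisense gene 9430073C21Rik, and the strand of the reads was not given in the sources used here. Ryr1 kept 3.24 to 7.33 CPM in 2225 and 4.62 to 27.5 CPM in 2250, against 0.192 to 2.66 CPM in 2153.

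**Figure D5:**
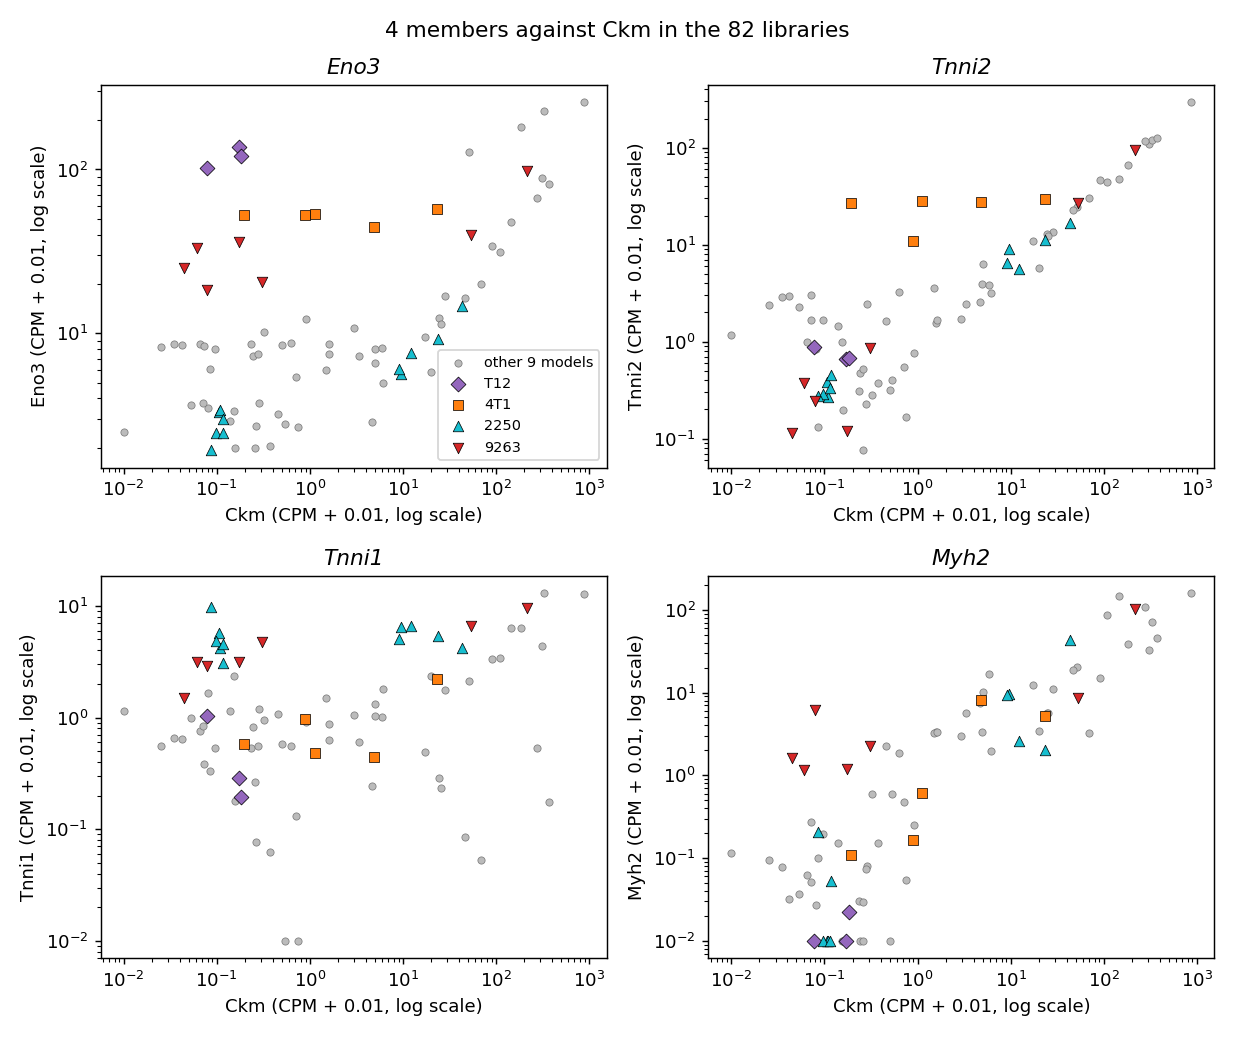
Level of Eno3, Tnni2, Tnni1 and Myh2 against Ckm in the 82 libraries (CPM + 0.01, both axes log), with T12, 4T1, 2250 and 9263 marked. Points to the left have almost no Ckm: there T12 and 4T1 lie high for Eno3, 4T1 for Tnni2, 2250 for Tnni1 and 9263 for Myh2, while to the right the points rise with Ckm for Eno3, Tnni2 and Myh2.

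Both regulators stayed under 10 CPM in all 82 libraries. Myog, which drives myoblast fusion genes, had its highest levels in E0771 replicate 1, at 5.62 CPM, and 4T1 replicate 1, at 4.19 CPM. Myod1, the regulator that commits cells to the muscle lineage, reached 1.82 CPM in E0771 replicate 1. Myog averaged 2.58 CPM in E0771 and 0.465 CPM in the others, a log2 difference of 3.76 ± 0.95 (adjusted p = 0.000481), and Myod1 0.891 and 0.184 CPM, a difference of 3.50 ± 0.92 (adjusted p = 0.00083). DESeq2 put these at 0.0558 and 0.065. In 4T1 Myog differed by 2.66 ± 0.86 (adjusted p = 0.00726), and by 1.47 without replicate 1 (adjusted p = 0.236). DESeq2 put the adjusted p at 0.0932.

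The richest FVB libraries had less RNA of the regulators than E0771 replicate 1, which was the highest of all 82 libraries for both. MMTV-NEU replicate 6 had 279 CPM of Ckm with 0.116 CPM of Myog and 0.232 CPM of Myod1, which were 2 and 4 counts. MMTV-PYMT replicate 5 had 376 CPM of Ckm with 0.477 CPM of Myog and 0.613 CPM of Myod1, which were 35 and 45 counts. E0771 replicate 1, with 333 CPM of Ckm, had 5.62 CPM of Myog. Of 10 genes of muscle stem cells and myoblasts, 9 were tested. In E0771 6 were higher and 3 lower, where 29.4% of all genes were higher and 26.9% lower. In 2224 7 were higher, against 24% of all genes, and in 2208 4 were higher and 1 lower, against 29.4% and 24.7%.

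The genes of that list differed in level. Pax7, which marks muscle stem cells, stayed at or below 0.299 CPM in the 82 libraries and Myf5, a regulator of early myoblasts, at or below 0.111 CPM. The other 8 passed 1 CPM in at least 1 library. Myf6, a regulator of mature fibres, reached 8.93 CPM in 2208 replicate 9 and shared 8 of its 10 highest libraries with Ckm. Pax3, a regulator of muscle precursors, reached 19.5 CPM in 2225 replicate 10 and Megf10, a receptor of muscle stem cells, 108 CPM in KPB1-A replicate 1. Pax3 shared 0 of its 10 highest libraries with Ckm and Megf10 shared 1. The list summed to 11.6 to 135 CPM in the 19 libraries with muscle RNA and to 6.15 to 269 CPM in the other 63, so the ranges overlapped.

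The ratio of Acta1 to Ckm, and of the perinatal myosin Myh8 to Myh4, separated a few libraries. Over the 47 libraries Acta1 had a median of 3.79 times the CPM of Ckm. It was 22.9 times in 2208 replicate 1, 19.4 times in 2153 replicate 3 and 17 times in 2336 replicate 4, and in these same 3 libraries Myh8 was 2.39, 1.99 and 1.31 times Myh4. The 2 ratios did not always go together. Myh8 was 2.64 and 1.68 times Myh4 in 2225 replicates 7 and 5, and 1.27 times in 2250 replicate 7. Acta1 was 2.28, 5.46 and 6.40 times Ckm in those libraries. In 2208 replicate 9 Myh8 was 0.0014 times Myh4. The embryonic myosin Myh3 stood at 6.29 to 27.2 CPM in 2225 and at 6.09 to 21.1 CPM in 9263, in libraries with and without Ckm, with log2 differences from the other models of 4.75 ± 0.43 (adjusted p = 5.01e-16) and 4.38 ± 0.44 (adjusted p = 6.6e-14).

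Other muscle genes came from lists chosen beside the members. Of all genes tested, 29.4% were higher and 26.9% lower in E0771, 24% and 14.8% in 2224, and 29.4% and 24.7% in 2208. Of 22 further sarcomere genes, 20 were higher and 1 lower in E0771, 17 higher and 0 lower in 2224, and 14 higher and 0 lower in 2208. The counts of this list and of those below are given only with all libraries of 2208, and not without its replicates 9, 10 and 11. They are thus not separate from the result of the members there: Cmya5 was highest in 2208 replicate 9 and shared 9 of its 10 highest libraries with Ckm. Ldb3 shared 5. Ldb3 and Cmya5, both of the Z-disc region, reached 91.6 CPM and 113 CPM in their highest libraries. Cmya5 differed by 2.20 ± 0.65 in E0771 (adjusted p = 0.0026) and by 1.75 ± 0.40 in 2208 (adjusted p = 0.000132). Nebl, a nebulin relative of the heart and other tissues, shared none of its 10 highest libraries with Ckm. Of 16 further calcium handling genes, 12 were higher in E0771, 11 in 2224 and 13 in 2208, where 2 were lower.

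Of 17 muscle metabolism genes, 13 were higher in E0771, 6 higher and 4 lower in 2224, and 12 higher and 1 lower in 2208. The shares of all genes were 29.4% higher in E0771, 24% higher and 14.8% lower in 2224, and 29.4% higher and 24.7% lower in 2208. Aldoa and Ldha of glycolysis, which most tissues express, had medians of 1391 and 1017 CPM. Of 7 genes of the nerve-muscle junction, 5 were higher in E0771, against 29.4% of all genes, where the receptor subunit Chrna1 differed by 4.34 ± 0.61 (adjusted p = 4.04e-09). The 10 genes outside the members that followed Ckm most closely over the 82 libraries, by Spearman's rho, were Eef1a2 at 0.915, Art1, Lmod3, Tmem182, Sln, Smpx, Scn4a, Trim54, Myf6 and Cacna1s at 0.875.

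The 10 heart muscle genes summed to 2.25 to 26.6 CPM in the 19 libraries with muscle RNA, with a median of 7.66 CPM, and to 0.727 to 16.9 CPM in the other 63, with a median of 2.74 CPM. Nppa, Mybpc3, Ryr2 and Pln stayed below 1 CPM in all 82 libraries. The other 6 went higher, with highest levels of 17.9 CPM for Nkx2-5, 15.8 CPM for Sbk2, 9.84 CPM for Nppb, 9.18 CPM for Myh6, 7.61 CPM for Tnni3 and 1.2 CPM for Myl7. Sbk2 and Myh6 had theirs in 2208 replicate 9, and shared 8 and 6 of their 10 highest libraries with Ckm. Nkx2-5 and Myl7 shared 0, Nppb and Tnni3 shared 2 each. Myh6, the alpha myosin of the heart, stood at 12.5% to 28.3% of Myh7 in 8 BALB/c libraries with at least 100 counts of Myh7 and at 0% to 0.0643% of Myh7 in the 3 E0771 libraries. Myh6 shares 32.3% of its 31-base words with Myh7, so these values are uncertain. The 11 smooth muscle genes summed to 280 to 2957 CPM in the 19 libraries with muscle RNA and to 102 to 4051 CPM in the other 63, so the ranges overlapped.

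The 13 adipocyte genes summed to 38.9 to 1465 CPM in the 19 libraries with muscle RNA, with a median of 150 CPM, and to 20.4 to 703 CPM in the other 63, with a median of 56. Their highest sums were 1465 CPM in MMTV-NEU replicate 6 and 1420 CPM in MMTV-PYMT replicate 5, where Ucp1, the uncoupling protein of brown fat, was at 33.6 and 41.3 CPM and the fat hormone gene Adipoq at 42.7 and 42.6 CPM. All 13 passed as higher in both models, against 34% of all genes in MMTV-NEU and 31% in MMTV-PYMT. In E0771 1 was higher and 1 lower, against 29.4% and 26.9% of all genes. Their part in the difference of fibre genes between strains was not tested. The 8 fibroblast and tendon genes summed to 387 to 8760 CPM in the libraries with muscle RNA and to 64.6 to 5818 CPM in the others, and the 6 epithelial genes to 370 to 4653 and 253 to 5550 CPM.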

How the data were processed

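Cryopreserved mammary tumours were homogenized, RNA was isolated with the RNeasy Mini kit and TruSeq mRNA libraries were made, per the labels' protocols. STAR, SAMtools, Picard and Salmon with build mm10 are named in the submitters' processing notes, without versions; the annotation and the strand setting are not given in the sources used here. The authors deposited estimated counts (85.5% of the values were whole) and a table of normalized signal. The signal table was recomputed from the counts by scaling the upper quartile of a library's counts above 0 to 1000.

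Counts were divided by the library total for CPM, and by the union exon length of GENCODE M21 where genes were compared. For tests they were rounded, filtered with filterByExpr (minimum count 10, minimum total 15), scaled by TMM and fitted with edgeR 4.0.16 (R 4.3.3) over all 82 libraries by robust quasi-likelihood, with 69 residual degrees of freedom. Each model was set against the average of the 12 others' means, all models weighing the same, with Benjamini-Hochberg adjustment over 22847 genes and a threshold of 0.05. Alternatives left out the filter or the robust step, took DESeq2 1.42.0 or only its size factors, or ran limma 3.58.1 on log2 of the authors' normalized signal; each library was also left out in turn. On simulated counts with 200 genes changed 4-fold, 100% were recovered for 2208 and 91% for 2224. Those genes were drawn at random from all genes tested and simulated with the fitted dispersion trend. The members vary more within models than most genes, so these rates cannot be read as recovery of the members. Intervals and floors (3 counts) cover counting error only. The members and gene lists were chosen with earlier results of these data known. Genes are named from the members by role, and outside them by their fixed lists or by rank of Spearman's rho with Ckm. Replicate numbers are names in accession order.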

Additional observations from a re-analysis of the deposited data

Results flagged for a closer look

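For the percent of counts in the 35 genes and for Ckm, Myh2, Myog, Ryr1, Tnni1 and Eno3, the highest or lowest library was compared with the rest of its model by Dixon's test in models of 4 to 10 libraries. Of 56 such groups 26 had a library that stood apart. The test's rate of about 1 in 20 assumes normally distributed values, and CPM and percent were taken without logs. The genes named are also part of the 35, so the same library can be counted several times. The count is therefore a description and cannot be set against chance. No explanation was tested.

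9263 replicate 3 stood apart in 6 measures, with 0.300% of counts in the 35 genes, against 0.0793% in the next library of its model, Ckm at 218 CPM, Myh2 at 101.5 CPM, Myog at 2.56 CPM, Ryr1 at 42.7 CPM and Eno3 at 97.6 CPM. MMTV-NEU replicate 6 stood apart with 0.413%, against 0.0808% in the next library, Ckm at 279 CPM, Myh2 at 107 CPM, Ryr1 at 72.2 CPM, Tnni1 at 0.522 CPM and Eno3 at 66.7 CPM. MMTV-PYMT replicate 5 stood apart with 0.579%, against 0.0864% in the next library, Ckm at 376 CPM, Ryr1 at 131 CPM and Eno3 at 81.1 CPM.

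2153 replicate 3 stood apart at a low level, with 0.0078% of counts in the 35 genes, against 0.0036% in the next library, Ckm at 0.623 CPM, Myh2 at 1.86 CPM, Myog at 0.505 CPM and Ryr1 at 2.66 CPM. In 4T1 replicate 1 Ckm was at 23.2 CPM and Ryr1 at 38.7 CPM. Tnni1 stood apart in 2336 replicate 4 at 1.48 CPM and in MMTV-PYMT replicate 1 at 1.13 CPM, a library with 0 CPM of Ckm. Eno3 stood apart in 2225 replicate 7 at 12.2 CPM.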

How the results depend on the processing

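Of the alternatives to the counts and medians that answer a comparison, 64 stayed within 1.5 times or 1 SD and 14 did not. Members higher in 2208, 30 in the fit reported, numbered 2 by limma and 0 without 2208 replicates 9, 10 and 11 together, and leaving out single libraries gave 7 to 32. Higher in 2224 (28) became 16 by DESeq2 and 7 to 32 with a library left out. Higher in MMTV-PYMT (20) became 0 by limma and 0 to 24 with a library left out, and higher in MMTV-NEU (11) became 5 with no filter, 0 by limma, 20 without the 3 libraries of 2208 and 1 to 12 with a library left out. Lower in T12 (15) became 6 with no filter, 28 by DESeq2 and 1 to 2 with a library left out. The 139 higher calls over the 13 models became 70 by limma, and the 52 lower calls 31 with no filter and 88 by DESeq2. Libraries with muscle RNA (19) numbered 37 at 1 CPM and 5 at 100 CPM. With a library left out, members higher in E0771 numbered 24 to 35, members lower in 2153 13 to 19, members called among models 35 to 35, genes called among models 22378 to 22456, and the median share of variance between models was 26.0% to 32.1%.

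Without the 3 libraries of 2208 the differences of 2208 were -1.62 for Acta1, -1.27 for Ckm and -1.01 for Myh4. By limma Myh4 was -0.57 in 2208 and -0.63 in MMTV-PYMT. Myh2 in 9263 ran from -0.22, without replicate 3, to 2.24 with a library left out. The causes were not tested. No paired analysis was possible because replicate numbers are names in accession order and the labels pair no libraries across models. Depth limits genes near 3 counts, such as Myog and Myod1.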
